A study of Mus musculus with 12 samples.

Results

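Dual cells are islet T cells in which 1 productive TCR beta (TRB) chain was assembled together with 2 different productive TCR alpha (TRA) chains, and single cells are those with the same 1 TRB chain and only 1 TRA chain. Chains were told apart by the nucleotide sequence of the CDR3, the junction that contacts antigen. Of 27423 cell barcodes in the mRNA matrices, 1271 were dual and 10809 were single after the quality filter and the assignment to CD4 conventional cells, regulatory T cells (Treg) and CD8 cells. The dual cells comprised 780 CD4 conventional cells, 123 Treg and 368 CD8 cells. The cells came from pancreatic islets of female pre-diabetic NOD mice, a strain that develops spontaneous autoimmune diabetes, at 12 weeks of age. Live cells carrying surface TCR beta were sorted, and each of the 4 biological replicates was read as mRNA, as TCR contigs and as antibody counts for CD4, CD62L, CD11a and CD8b. No treatment, genotype or age was varied, so every comparison here is between dual and single cells of the same replicate or between populations within a replicate. Whether a replicate holds 1 mouse or several pooled mice is not stated in the labels, so p-values measure the spread between these 4 replicates.

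A developing thymocyte rearranges both TRA alleles, and because allelic exclusion is loose at this locus a mature T cell can keep a productive chain from each. TRB is excluded more strictly, which is why 1 TRB chain serves to mark a clone. Rearrangement at TRA can repeat on an allele, each round replacing the earlier join with one that uses a V segment further upstream and a J segment further downstream. Dual-receptor T cells are studied in autoimmunity because a receptor that escapes selection could be carried along by a partner that passes it.

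In the TCR libraries, 16424 barcodes held exactly 1 productive TRB chain, of which 2746 had no TRA chain, 12226 had 1 and 1452 had 2. No barcode with 1 TRB chain held 3 or more TRA chains. The 3 populations were gated on the CD4 antibody count, Cd8a plus Cd8b1 UMIs and Foxp3 UMIs, and the gates used no TRA information. The lineage labels held in dual cells on measures outside the gate: Cd4 mRNA, coding for the coreceptor, stood at 422 to 493 CPM (gene counts scaled to a common total) in dual CD4 conventional cells and at 0 to 6.56 in dual CD8 cells, and 76.9% ± 5.84 (SD, n = 4) of dual CD8 cells had a CD8b antibody count. The dual CD4 conventional cells numbered 226, 123, 203 and 228 in replicates 1 to 4, the dual Treg 30, 37, 16 and 40, and the dual CD8 cells 87, 36, 204 and 41. Any pair of libraries shared between 36 and 102 mRNA barcodes, and each TCR library was matched only to the mRNA library of its own replicate. Antibody and gene counts were raw, the mRNA libraries held 26861163 to 37834174 gene UMIs, and the summed dual or single groups held 185048 to 10651149.

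The junctions of recurrent dual clones show what a dual cell is at the sequence level. They are printed here, as assembled by the authors, for the 4 clones with the most dual cells of the same TRA pair. In each pair the capitals mark the bases between the stretches that both TRA chains share at their ends, so the capitals hold the part that differs. Clone 1 was a CD8 clone of replicate 3 with TRAV6N-7 joined to TRAJ53 and TRAV5-4 joined to TRAJ50, and its TRB junction, which used TRBV16 and TRBJ1-4, is given in lower case.
clone 1, chain 1: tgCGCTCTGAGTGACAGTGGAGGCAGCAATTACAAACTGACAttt
clone 1, chain 2: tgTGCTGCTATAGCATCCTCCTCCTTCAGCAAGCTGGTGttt
clone 1, TRB: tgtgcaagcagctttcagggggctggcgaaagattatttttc
Clone 2 was a CD4 conventional clone of replicate 4, with TRAV8D-2 and TRAJ15 in chain 1 and TRAV7-6 and TRAJ9 in chain 2.
clone 2, chain 1: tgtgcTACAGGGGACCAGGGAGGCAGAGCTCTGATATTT
clone 2, chain 2: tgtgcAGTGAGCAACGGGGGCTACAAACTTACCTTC
Clones 3 and 4 each joined neighbouring J segments, TRAJ49 and TRAJ48 in a CD8 clone of replicate 3 and TRAJ31 and TRAJ30 in a CD4 conventional clone of replicate 4.
clone 3, chain 1: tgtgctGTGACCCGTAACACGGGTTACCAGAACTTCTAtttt
clone 3, chain 2: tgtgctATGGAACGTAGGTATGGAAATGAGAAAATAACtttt
clone 4, chain 1: tgTGCTAATGGCAATAACAGAATCTtcttt
clone 4, chain 2: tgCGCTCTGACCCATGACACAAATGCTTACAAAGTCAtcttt
Every one of these junctions had a length divisible by 3, from 30 to 45 bases, which the choice of productive chains requires. In each of the 4 clones all dual cells carried the same TRA pair, which the ranking by cells of the same pair favours.

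About 1 cell in 10 was dual. Over the 3 populations together the dual share of dual plus single cells was 10.4% ± 2.27 (SD, n = 4). In CD4 conventional cells the share was 9.85%, 8.12%, 9.61% and 9.83% in replicates 1 to 4, the narrowest spread of the 3 populations. In Treg the share was 12.8%, 15.1%, 9.04% and 14.7%, above CD4 conventional cells in every replicate except replicate 3, which held only 16 dual Treg. Treg exceeded CD4 conventional cells by 3.55 percentage points ± 3.21 on average (SD, n = 4; exact two-sided sign-flip permutation p = 0.25, adjusted over 3 population pairs 0.75), and 0.12 is the smallest p that 4 replicates allow. Treg needed a Foxp3 UMI and CD4 conventional cells had to lack one, so population and depth are not separated here. The replicate medians of gene UMIs averaged 5159 in single Treg and 3838 in single CD4 conventional cells. The part of depth, and of droplets that caught 2 cells, in the Treg difference was not tested. In CD8 cells the share was 10.2%, 6.92%, 25.5% and 5.56%, so replicate 3 stood far above the others. The difference between CD8 and CD4 conventional cells was 2.70 points ± 9.02 (SD, n = 4; exact sign-flip permutation p = 0.875, the same after adjustment). With 1 cell per TRB clone that difference was -0.42 points ± 1.43, and without replicate 3 it was -1.71, so its sign rests on that library. In this count a clone with dual and single cells enters once in each group. Counted so, CD8 cells were dual in 9.76% ± 1.39 (SD, n = 4), CD4 conventional cells in 10.2% ± 0.703 and Treg in 14.4% ± 3.87.

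**Figure D1:**
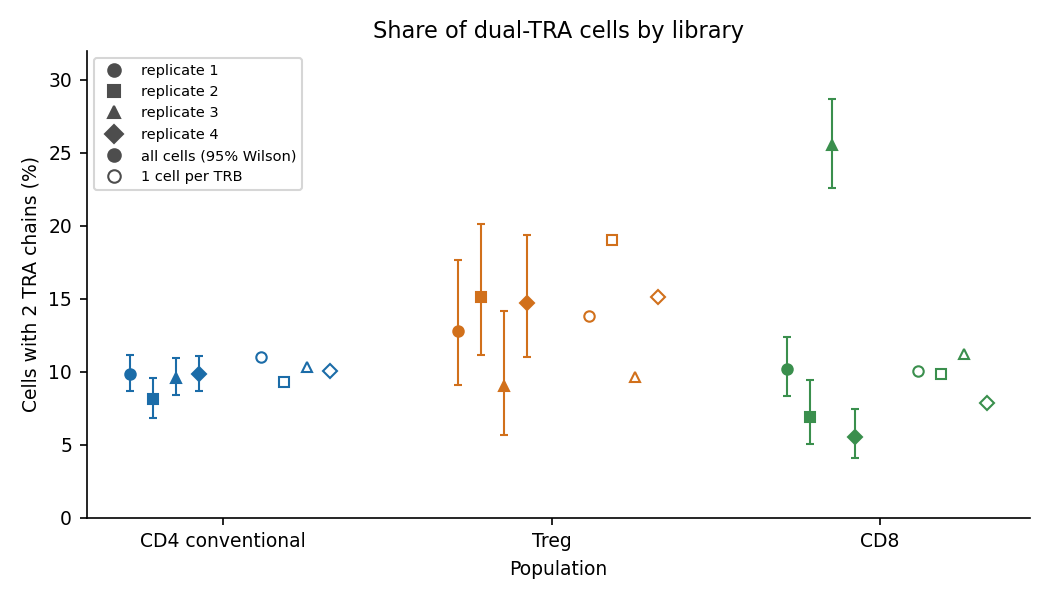
Share of cells with 2 TRA chains (percent, y axis) in 3 populations (x axis). Filled points are the 4 libraries with 95% Wilson intervals, which cover counting error only, and open points count 1 cell per TRB clone in the dual and in the single group. CD8 cells of replicate 3 lie at 25.5% over all cells and at 11.2% when each clone counts once per group.

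The excess in CD8 cells of replicate 3 was 1 clone, clone 1 above. It held 245 of that library's CD8 cells (30.7%), and its 143 dual cells made up 70.1% of the library's dual CD8 cells. The other 554 CD8 cells of the library were dual in 11.0%. Within the clone 58.4% of cells were dual (95% Wilson interval 52.1 to 64.4), 86 cells showed chain 1 alone, 15 showed chain 2 alone and 1 showed another chain. Few cells of the clone carried CD62L, the lymph node homing receptor, at a count of 10 or more (5.31%, against 43.0% of the other CD8 cells of the library). CD11a, the integrin alpha chain of LFA-1, which is raised on antigen-experienced T cells, had a median count of 350 in the clone and 164.5 in the other CD8 cells. Among the 3316 barcodes of the library with another TRB chain, chain 1 and chain 2 each occurred in 1.

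The dual share was higher in cells with more TRB UMIs in CD4 conventional cells and in clone 1, and less regularly in the other cells. In CD4 conventional cells, the dual share was 5.94% ± 3.16 (SD, n = 4) among cells with 1 to 2 TRB UMIs, 8.59% ± 1.56 at 6 to 10 and 13.6% ± 1.26 at 21 or more. In CD8 cells without clone 1 it went from 5.59% ± 0.653 at 1 to 2 TRB UMIs to 11.7% ± 7.86 at 21 or more, where the lowest library was at 4.27%. In Treg it was 11.1% ± 3.11 at 3 to 5 TRB UMIs, 16.9% ± 2.80 at 11 to 20 and 13.2% ± 5.98 at 21 or more. Clone 1 gives the same comparison among cells that share 1 TRB junction: 18.8% of its 16 cells with 1 to 5 TRB UMIs were dual (95% Wilson interval 6.59 to 43.0), 43.6% at 6 to 10, 58.0% at 11 to 20 and 72.2% of 90 cells at 21 or more (62.2 to 80.4). In the other 62 clones with a TRA pair read in at least 2 cells, the dual share was 60.0% of 50 cells at 1 to 5 TRB UMIs and 83.7% of 86 cells at 21 or more. Those clones were chosen because the pair recurred, which raises the level at every depth. Of the 102 cells of clone 1 that were called single, 101 showed 1 chain of the pair.

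**Figure D2:**
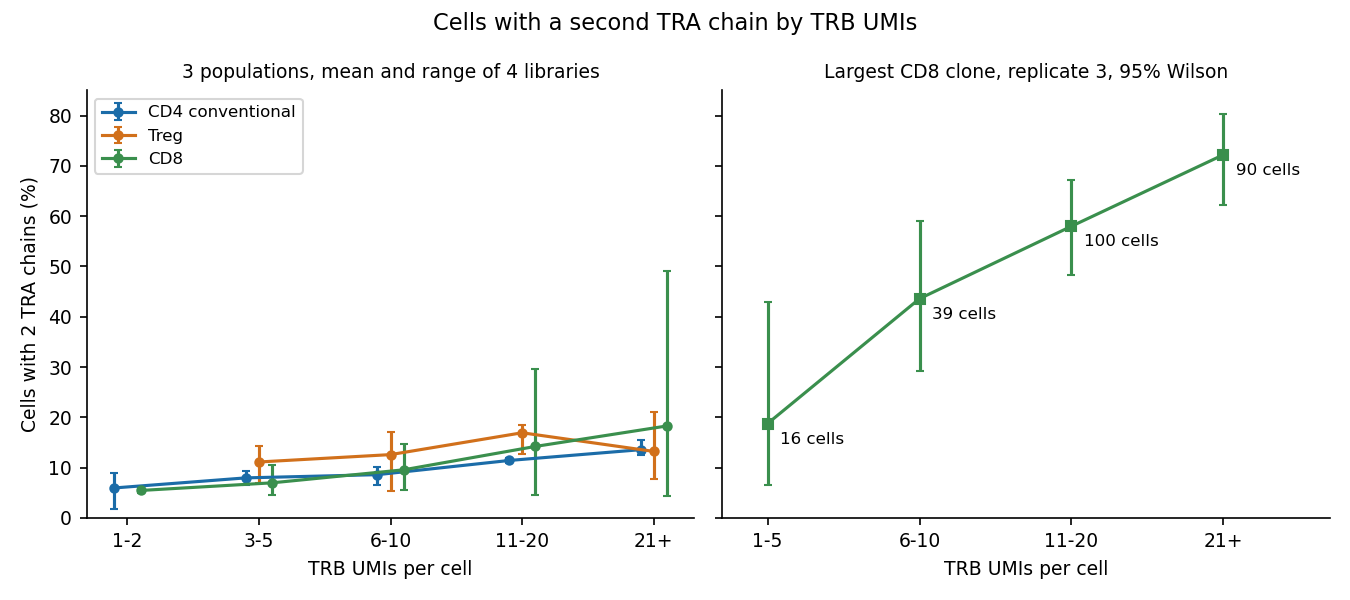
Share of cells with 2 TRA chains (percent, y axis) by TRB UMIs per cell (x axis). Left, mean of 4 libraries with the lowest and highest library as bars, for bins with at least 20 cells in every library and with clone 1 included in CD8 cells; right, the 245 cells of clone 1 with 95% Wilson intervals, rising from 18.8% to 72.2%.

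Dual cells were deeper than single cells on measures the definition did not use. The median of gene UMIs was 4505, 4997, 4645 and 3963 in dual CD4 conventional cells of replicates 1 to 4 and 3870, 4191, 3997 and 3295 in single cells, higher in each replicate by a similar factor. The log2 ratio of medians was 0.24 ± 0.02 (SD, n = 4; exact sign-flip permutation p = 0.12, adjusted over 15 comparisons 0.312), which is the smallest p possible. In Treg it was 0.37 ± 0.20 with all 4 replicates higher, and in CD8 cells 0.14 ± 0.26 with 3 of 4 higher. TRB contig UMIs were also higher in dual cells, with log2 ratios of 0.31 ± 0.08 in CD4 conventional cells, 0.31 ± 0.16 in Treg and 0.34 ± 0.44 in CD8 cells (SD, n = 4 each). The mitochondrial share, a sign of cell damage, was 1.93% in dual and 1.94% in single CD4 conventional cells. For scale, barcodes with 2 TRB chains, which include droplets that caught 2 cells, had 1.5 ± 0.137 times the gene UMIs of single cells among CD4 conventional cells, and dual cells 1.18 ± 0.0203 times. In Treg the ratios were 1.76 ± 0.256 and 1.30 ± 0.180, and in CD8 cells 1.12 ± 0.226 and 1.11 ± 0.189 (SD, n = 4). Barcodes with 2 TRB chains made up 5.35% of TRB-bearing CD4 conventional cells, 12.7% of Treg and 4.97% of CD8 cells, and the part of 2-cell droplets in the dual group was not tested.

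Both chains of a dual cell were usually well covered. Over all 1271 dual cells the chain with more UMIs had a median of 6 contig UMIs and the other 4, with a median ratio of 0.667 (quartiles 0.50 to 0.80). In 78.7% of dual cells the weaker chain had at least 0.5 of the UMIs of the stronger. A weaker chain read from 1 UMI only occurred in 81 dual cells (6.37%), and the lone TRA chain of single cells rested on 1 UMI in 6.67%. The chains were as private as those of single cells: counted once per clone, the stronger and the weaker chain were each found again beside another TRB chain of the same library in 6.37% of 958 dual clones, and the lone chain in 6.70% of 8123 single clones.

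Dual CD4 conventional and CD8 cells had a nonproductive TRA contig less often than single cells. A full-length TRA contig marked nonproductive was present in 6.64%, 4.07%, 2.46% and 3.95% of dual CD4 conventional cells of replicates 1 to 4, against 24.7%, 26.4%, 22.7% and 23.9% of single cells. The groups did not overlap in CD4 conventional or CD8 cells (CD8 dual 3.91% ± 4.16, single 24.8% ± 1.49; SD, n = 4). In Treg they overlapped in range, at 15.9% ± 9.65 in dual and 28.1% ± 4.11 in single cells, and replicate 3 gave 25% of 16 dual Treg against 25.5%. A diploid cell has 2 TRA alleles, so a cell with 2 productive chains and a full-length nonproductive one holds more TRA transcripts than alleles. These shares are a description, since the definition itself counts TRA contigs.

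Among 8974 TRB clones of the 3 populations, 958 held at least 1 dual cell (10.7%). Of these, 812 were clones of 1 cell, in which a pair cannot be read again. In the 146 larger clones, 63 showed the same TRA pair in at least 2 cells (43.2%) and 12 showed more than 1 pair. As a mean over these clones, in which each clone counts once, 33.0% of the mates of a dual cell carried both of its TRA chains, 63.3% carried 1 and 3.66% neither. Over all pairs of mates, where large clones dominate, 57.5% carried both, or 46.7% without clone 1. By population the clone mean with both was 32.3% in 99 CD4 conventional clones, 31.2% in 16 Treg clones and 36.0% in 31 CD8 clones. Clone 2 had 15 dual cells among 24, with 9 cells showing chain 1 alone. Clone 3 was dual in all of its 15 cells, and clone 4, whose chains had medians of 15 and 14 UMIs, in 11 of 12.

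**Figure D3:**
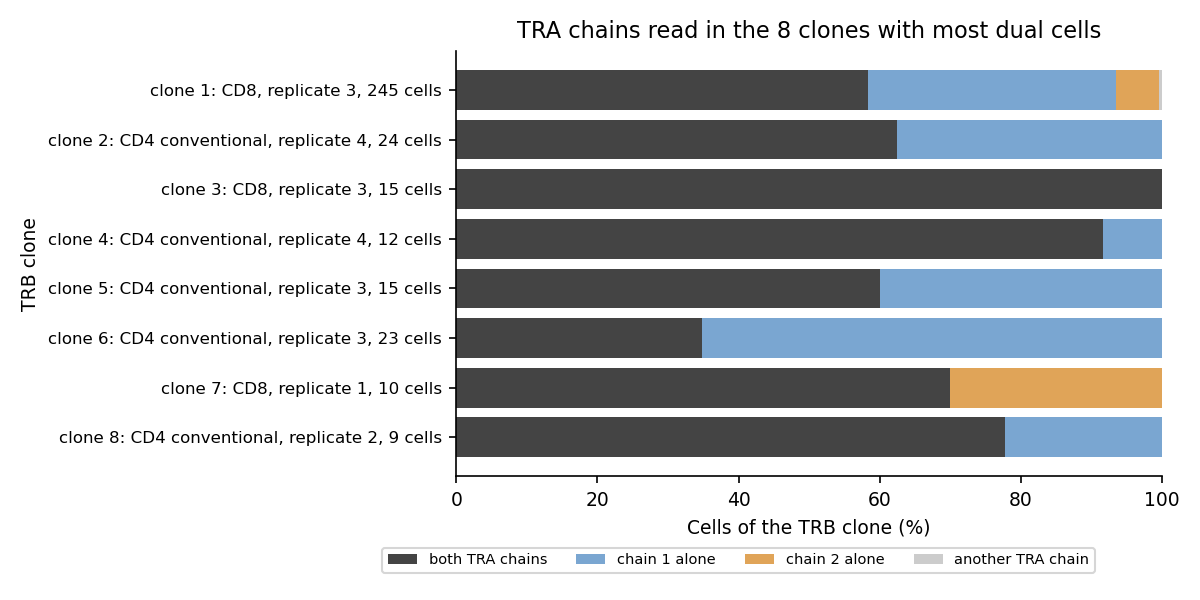
TRA chains read in the 8 TRB clones with the most dual cells of the same TRA pair, as percent of the clone's cells (x axis), 1 bar per clone (y axis). Dark segments are cells with both chains; they range from 34.8% in clone 6 to all 15 cells of clone 3, and the remaining cells nearly all show 1 chain of the same pair.

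The J segments of the 2 chains of a cell lay close to each other. Counting each dual TRB clone once, the TRAJ numbers of the 2 chains differed by a median of 7 (mean 9.98, 950 clones), against 14 (mean 16.0) for chains taken from different clones of the same library. A distance of at most 10 positions was found in 62.9% of dual clones and in 39.1% of pairs between clones. By replicate the within-cell share was 60.5%, 60.8%, 62.1% and 68.3%, each above the between-clone share of its library, which ran from 37.8% to 39.7%. Across the 950 clones the TRAJ numbers of the stronger and weaker chain correlated with a Pearson r of 0.54 and a Spearman rho of 0.54, given as a description because the points share libraries and segment use. The Pearson r was 0.51 in CD4 conventional cells, 0.59 in Treg and 0.63 in CD8 cells. The 62 clones whose pair was read in 2 or more cells gave a median distance of 8.5, against 16 between them. The position of V segments was not compared; both chains used the same TRAV family in 8.74% of dual clones and in 8.96% of pairs between clones.

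**Figure D4:**
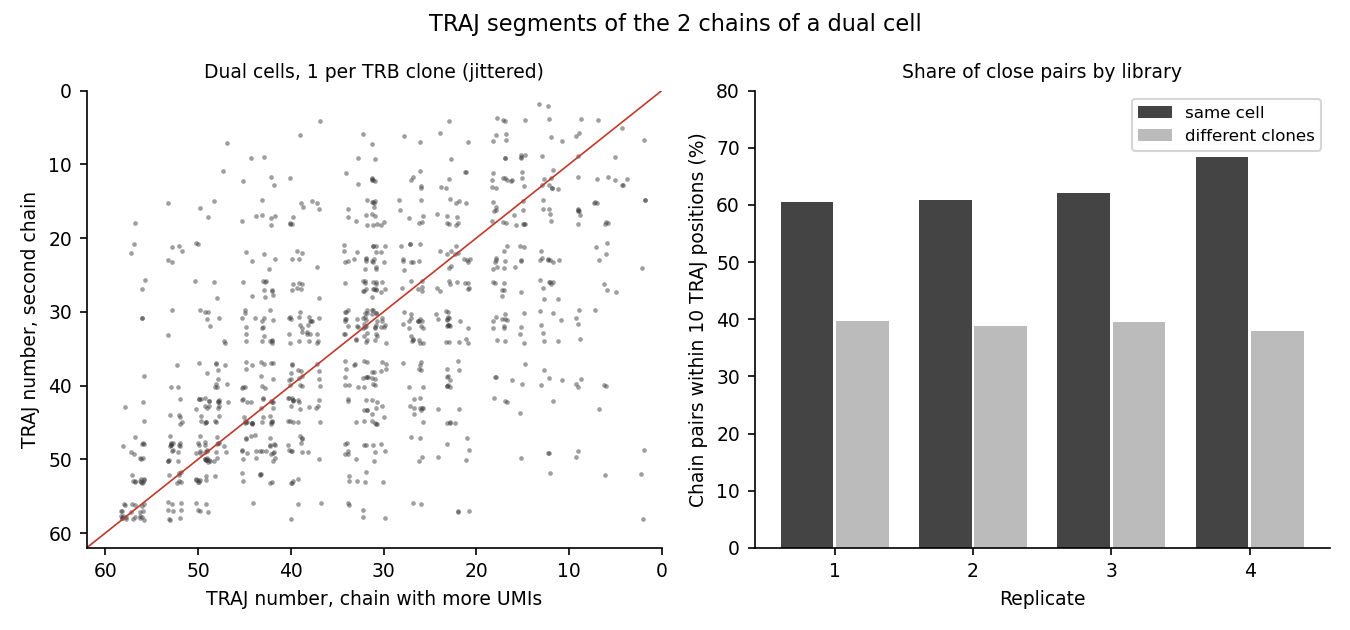
Left, TRAJ number of the chain with more UMIs (x axis) against that of the second chain (y axis), 1 point per dual TRB clone, with the line of equality; axes run from the upstream, high-numbered segments. Right, percent of chain pairs within 10 TRAJ positions (y axis) by replicate (x axis) for the 2 chains of a cell and for chains of different clones, with the same-cell bar higher in all 4 libraries.

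Dual cells used a few TRAV families more often than single cells. With 1 cell per TRB clone and the 3 populations pooled, 3 of 19 TRAV families differed (15.8% of those tested; edgeR quasi-likelihood test, adjusted p under 0.05), all of them higher in dual cells. TRAV15 made up 1.16%, 1.75%, 1.29% and 1.42% of dual-cell chains in replicates 1 to 4 and 0.246%, 0.344%, 0.303% and 0.417% of single-cell chains, so the groups did not overlap. The log2 difference was 2.09 ± 0.39 (SE, n = 4 against 4; edgeR quasi-likelihood adjusted p = 3.7e-05) on 26 chains in each group. The TRAV15 chain was the stronger chain in 14 dual clones and the weaker in 12, with a median of 5 UMIs, equal to its partner's median of 5. TRAV15D-1-DV6D-1, a segment that can also join to delta chains, was the most frequent, with 21 of the 26 chains in dual and 15 of the 26 in single clones. CD4 conventional cells held 21 of the 26 dual clones with TRAV15 and 663 of all 958 dual clones.

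TRAV13 and TRAV1 passed by smaller margins. TRAV13 made up 12.3%, 10.2%, 10.6% and 13.2% of dual-cell chains against 8.33%, 8.25%, 8.73% and 9.40% of single-cell chains, without overlap (log2 difference 0.47 ± 0.11 SE, edgeR quasi-likelihood adjusted p = 0.0011). TRAV1 was at 2.33%, 2.05%, 1.08% and 0.610% against 0.821%, 0.344%, 0.605% and 0.602%, with replicate 4 alike in both groups (1.30 ± 0.38, edgeR quasi-likelihood adjusted p = 0.0074). Without replicate 1 TRAV15 alone passed, with adjusted p = 0.061 for TRAV13 and 0.078 for TRAV1 by the same test, and without replicate 3 TRAV1 gave 0.11. Of 42 TRAJ segments none passed (0.0% of those tested; edgeR quasi-likelihood), and the smallest adjusted p was 0.13. Near-identical duplicated segments of the TRAV locus can share contig assignments, so families are firmer than single segments.

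Whether dual cells were expanded more or less often than single cells depended on which cells were compared. A cell was called expanded when its TRB chain was in at least 2 dual or single cells of the library and population. TRA sequences did not define the clone, but cells without a TRA chain were not counted, so clone size depends on TRA detection. In CD4 conventional cells 18.6%, 30.1%, 28.1% and 35.1% of dual cells were expanded against 25.7%, 34.5%, 28.3% and 30.8% of single cells, a difference of -1.85 points ± 5.01 (SD, n = 4; exact sign-flip permutation p = 0.375, adjusted 0.562). Against single cells matched on gene and TRB UMIs the difference was -8.81 points ± 5.49, lower in all 4 replicates. In Treg the difference was -6.71 points ± 12.6, and none of the 16 dual Treg of replicate 3 was expanded. In CD8 cells dual cells were expanded in 34.5%, 19.4%, 81.9% and 31.7% and single cells in 24.7%, 44.6%, 48.6% and 50.1%, a difference of -0.11 points ± 26.9 that was -8.08 ± 16.4 without clone 1. Counting each TRB clone once per group turned the sign: clones with a dual cell were expanded more often by 6.32 points ± 2.12 in CD4 conventional cells (4 of 4 replicates), 2.78 ± 9.58 in Treg and 5.28 ± 4.12 in CD8 cells, where a clone with more cells also gives more chances to read a pair. By clone size, CD4 conventional cells were dual in 9.55% ± 0.867 where the TRB chain was seen once, 11.0% ± 1.82 in clones of 2 to 4 cells, 8.99% ± 6.39 at 5 to 9 and 5.65% ± 5.02 at 10 to 99 (SD, n = 4).

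The share of cells with CD62L at a count of 10 or more was higher in dual CD4 conventional cells in each replicate. In the other populations it differed by less than the spread between replicates. CD62L at a count of 10 or more was found in 52.7%, 30.9%, 42.4% and 37.3% of dual CD4 conventional cells and in 51.7%, 22.5%, 39.5% and 33.1% of single cells, higher in each replicate by 4.10 points ± 3.15 on average (SD, n = 4; exact sign-flip permutation p = 0.12, adjusted 0.312). With 1 cell per TRB clone that difference was 1.31 points ± 4.73, so its size depends on how clones are counted. The dual share of CD4 conventional cells did not rise steadily with the CD62L count. It was 8.43% ± 1.13 at counts of 0 to 4, 11.8% ± 1.20 at 5 to 9, 9.62% ± 2.65 at 10 to 19 and 10.7% ± 0.258 at 20 or more (SD, n = 4). Dual CD4 conventional cells also had 1.18 times the gene UMIs of single cells, and the antibody counts were raw. In Treg the CD62L difference was 3.85 points ± 8.16 and in CD8 cells -3.56 ± 13.7, each with 2 of 4 replicates higher, and in CD8 cells it was 1.72 ± 9.85 without clone 1.

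CD11a was higher on dual Treg. The median CD11a count was 340.5, 296, 397.5 and 253.5 on dual Treg and 245, 218, 226 and 226 on single Treg, with no overlap. On the log2(count + 1) scale the mean differed by 0.36 ± 0.09 (SD, n = 4; exact sign-flip permutation p = 0.12, adjusted 0.312), and by 0.25 ± 0.15 against depth-matched single Treg, higher in 4 of 4 replicates in both. The depth match was incomplete in replicates 3 and 4. There the matched single Treg summed to 152142 and 376438 gene UMIs, and the dual Treg to 185048 and 419996. In replicates 1 and 2 the sums were closer, at 319571 and 331349 against 318237 and 338005. The CD4 antibody count, part of the gate, was higher on dual Treg as well, with medians of 362, 242, 392.5 and 385.5 against 323, 187.5, 251 and 267, and a mean ratio of 1.35 that was 1.23 against depth-matched single Treg (3 of 4 higher). Dual Treg also had 1.30 times the gene UMIs of single Treg, and the part of cell size or capture in the antibody differences was not tested. In CD4 conventional cells the CD11a difference was 0.08 ± 0.12 and became -0.16 ± 0.11 against depth-matched cells. In CD8 cells it was 0.26 ± 0.40, 0.08 ± 0.22 without clone 1 and -0.03 ± 0.23 against depth-matched cells.

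The transcriptomes of dual and single CD4 conventional cells differed in 3 of 11200 genes tested (0.0268%; edgeR quasi-likelihood with the replicate as a block, adjusted p under 0.05), 2 of them higher in dual cells (0.0179%) and 1 lower (0.00893%), with 505 genes at an unadjusted p under 0.05. The count was 8 without replicate 2, 14 without replicate 3 and 0 without the block. Trac, which codes for the TRA constant region and is shared by all TRA chains, rose. It stood at 287, 364, 422 and 322 CPM in dual cells and at 241, 268, 269 and 233 in single cells, and the lowest dual value lay above the highest single value. The log2 difference was 0.45 ± 0.06 (SE, n = 4 against 4; edgeR quasi-likelihood adjusted p = 0.0031), a fold of 1.37, and it was 0.44 ± 0.08 (adjusted p = 0.039) against depth-matched single cells. The adjusted p was 0.07 without replicate 4 and 1.0 without the replicate as a block. The mRNA and TCR libraries were made from the same cDNA, and dual cells were chosen for 2 TRA contigs. The definition therefore bears on Trac, and the Trac test is not independent of that choice. The part of capture per cell in the Trac difference was not tested.

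Trac, on which the choice of dual cells by TRA contigs bears in every population, differed by a similar amount in the other populations. In Treg it was 364, 346, 384 and 338 CPM in dual and 261, 280, 259 and 235 in single cells, a log2 difference of 0.48 ± 0.13 (SE) that did not pass (edgeR quasi-likelihood adjusted p = 0.88). In CD8 cells it was 314, 292, 358 and 317 against 227, 232, 233 and 212, a difference of 0.51 ± 0.12 (adjusted p = 0.43, same test). Neither group of values overlapped with its counterpart. The test of the difference between populations gave 0.03 ± 0.13 for CD8 against CD4 conventional cells and 0.01 ± 0.13 for Treg against CD4 conventional cells (SE, edgeR interaction term, adjusted p = 1.0 for both). Reads on TRAV segments, which the definition nearly fixes because dual cells were chosen for 2 TRA contigs from the same cDNA, summed to 1465 ± 61.4 CPM in dual and 988 ± 80.5 in single CD4 conventional cells (SD, n = 4), while TRBV segments were at 1795 ± 140 and 1821 ± 63.1. In CD8 cells TRBV reads were at 1735 ± 206 in dual and 1482 ± 139 in single cells, higher in 3 of 4 replicates, and in Treg at 1304 ± 120 and 1409 ± 69.0. UMIs of at least 2 TRAV genes were present in 87.8% of dual and 56.9% of single CD4 conventional cells in the mRNA matrix, where a single cell can also transcribe a nonproductive allele and related segments can share reads.

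**Figure D5:**
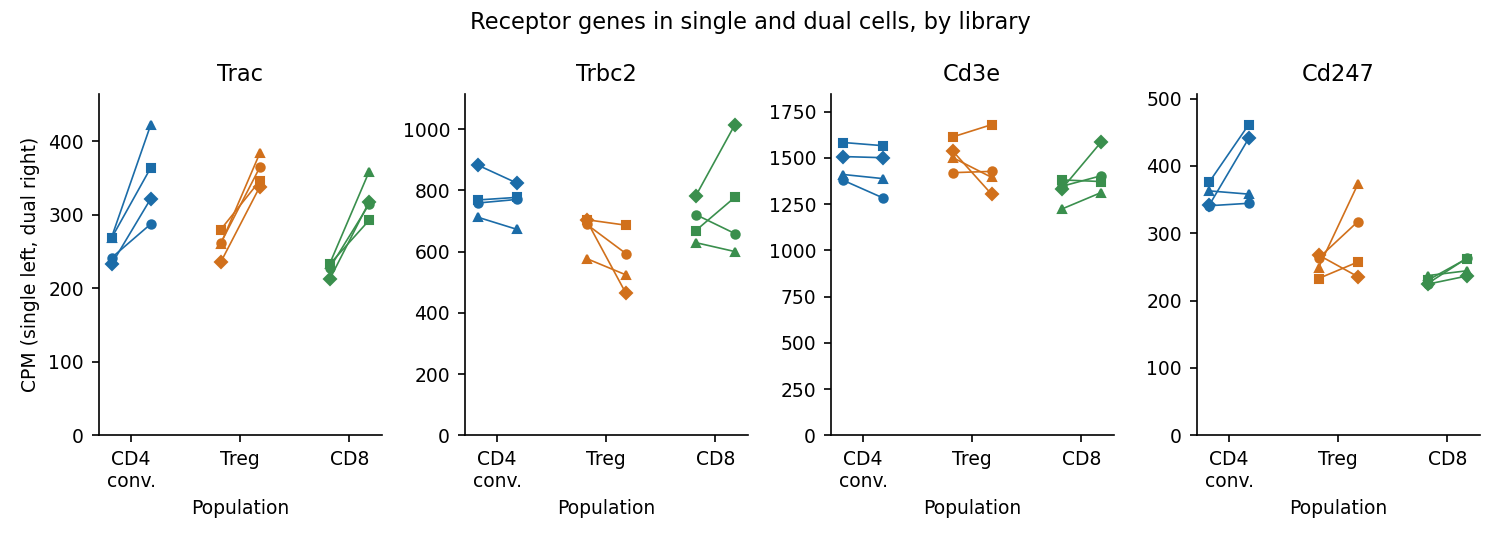
CPM (y axis) in single (left end) and dual (right end) cells of each population (x axis), 1 line per library (circle, square, triangle and diamond for replicates 1 to 4), for Trac, Trbc2, Cd3e and Cd247. Trac lies between 287 and 422 in dual and between 212 and 280 in single groups, while single and dual values of the other 3 genes overlap in CD4 conventional cells.

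In CD4 conventional cells no other gene of the receptor machinery passed. Of the 14 genes of the TCR complex and the start of its signal, Trac alone passed in CD4 conventional cells (1 higher, none lower), with a list median of -0.01 against -0.00 over all genes tested. Trbc2, the commoner TRB constant gene, stood at 761 ± 63.5 CPM in dual and 781 ± 72.4 in single CD4 conventional cells (SD, n = 4), and Trbc1 at 163 ± 19.9 and 182 ± 15.3. Cd3e, an invariant signalling subunit, was at 1435 ± 125 and 1469 ± 93.6. Cd247, coding for the zeta chain, differed by 0.16 ± 0.06 (edgeR quasi-likelihood adjusted p = 0.98). The other members, from the Cd3d and Cd3g subunits to the Lck and Zap70 kinases, did not pass, and the whole list ran from -0.17 to 0.45. No gene of the list passed in Treg (14 tested, median 0.02, all genes -0.00) or in CD8 cells (14 tested, median 0.10 with 13 above 0, all genes -0.01).

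Hspa1a and Ptgs2 were the other genes called in CD4 conventional cells. Hspa1a, an inducible HSP70 chaperone that rises in tissue dissociation, fell by 0.24 on the log2 scale (SE 0.03; edgeR quasi-likelihood adjusted p = 0.0022), from 2281, 3124, 1363 and 2675 CPM in single cells to 2066, 2744, 1086 and 2192 in dual cells, lower in each replicate. It was the only one of 12 dissociation and heat shock genes to pass, and it missed against depth-matched single cells (-0.21, adjusted p = 0.065), without replicate 4 (adjusted p = 0.081) and without the block (adjusted p = 1.0). Ptgs2, coding for cyclooxygenase 2, was higher by 3.16 ± 0.45 (SE, edgeR quasi-likelihood adjusted p = 0.0038), but 65 of its 90 UMIs came from 1 of only 4 dual cells that had any, and replicates 2 and 4 had none. The next genes by p were Actb, the beta actin of the cytoskeleton (0.08 ± 0.01, adjusted p = 0.051), Il7r, the IL-7 receptor of naive and memory cells (-0.35 ± 0.06, adjusted p = 0.051), and the nuclear RNA Malat1 (-0.09 ± 0.02, adjusted p = 0.14), none of which passed the same test. Il7r was at 239, 228, 254 and 186 CPM in dual and 294, 292, 294 and 273 in single cells, without overlap, yet its difference was -0.00 against depth-matched single cells.

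Counting 1 cell per TRB clone gave a longer list in CD4 conventional cells, 35 of 10483 genes, 20 higher and 15 lower (edgeR quasi-likelihood, adjusted p under 0.05). Among the genes higher in dual cells were Lag3, an inhibitory receptor (0.67 ± 0.09 SE), and Stmn1 and Mcm6 of the cycling list (0.56 ± 0.09 and 0.45 ± 0.09). Il7r (-0.48 ± 0.06) and Klf2, a transcription factor of quiescent recirculating cells (-0.24 ± 0.05), were lower, as were 6 ribosomal protein genes. These genes were picked from the called genes after their values were seen. Against depth-matched single cells, all cells counted, 34 of the 35 could be tested, 17 of them had the same sign, and Trac alone passed; Lag3 was at -0.13 and Klf2 at 0.13.

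With all cells counted, Trac and Hspa1a were the only called members of any gene list in CD4 conventional cells. The 14 naive and recirculation genes had a median log2 difference of -0.05, the 15 recent TCR signal genes 0.03, the 14 inhibitory and exhaustion genes 0.10, the 14 helper genes 0.02 and the 14 cycling genes 0.09, beside -0.00 over all genes tested. Members above 0 in these lists numbered 4, 9, 10, 7 and 13, in the same order. Other lists had medians of larger size, with none called. The 13 tested cytotoxic genes had a median of 0.29 with 11 above 0. The 12 interferon response genes were at -0.16 with 2 above 0, and the 8 tested Treg genes at 0.15 with 6 above 0. Of the 10 genes of rearrangement and thymic origin, 6 could be tested, with a median of -0.11, 1 above 0 and none called. B cell markers summed to 357 to 1223 CPM in dual and 373 to 1095 in single CD4 conventional cells, higher in dual cells in 3 of 4 replicates, with none of the 6 called. All 6 had a log2 difference above 0, with a median of 0.27. Gamma-delta T cell markers averaged 3.37 and 7.79 CPM and acinar and ductal markers 28.7 and 68.5, both lower in dual cells in 4 of 4 replicates, with none called. The part of these cell types in the results was not tested.

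In Treg none of 8575 genes passed (0.0%; edgeR quasi-likelihood), with 220 genes at an unadjusted p under 0.05 and none called by DESeq2. The count was 2 without replicate 1, 9 without replicate 2 and 2 without replicate 3. The genes of smallest p toward dual Treg were Il21, a helper cytokine, Trac and Dapl1, and toward single Treg Lta, coding for lymphotoxin alpha, Ifi27l2a, an interferon-induced gene, and Areg, the growth factor amphiregulin. Il21 gave 66.0, 5.92, 75.7 and 11.9 CPM in dual and 4.55, 6.65, 5.62 and 5.48 in single Treg, with 21 of its 42 dual UMIs in 1 cell. Areg was at 59.7, 47.3, 70.2 and 85.7 against 98.3, 124, 146 and 113, without overlap (log2 difference -0.83 ± 0.20 SE, edgeR quasi-likelihood adjusted p = 0.45). Ifi27l2a was at 1018 ± 148.8 in dual and 1390 ± 131 in single Treg (SD, n = 4; adjusted p = 0.45, same test). The 10 Treg signature genes had a median of -0.16 with 1 above 0, beside -0.00 over all genes tested, with none called.

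In CD8 cells 2 of 10582 genes passed, both lower in dual cells (0.0189%; edgeR quasi-likelihood), with 207 genes at an unadjusted p under 0.05 and none higher. The count was 4 without replicate 3, 1 without replicate 4 and 0 without the block. H2-Aa, an MHC class II chain of antigen-presenting cells, stood at 74.7, 95.2, 58.4 and 28.1 CPM in dual and 170, 159, 153 and 51.4 in single CD8 cells, lower in each replicate (log2 difference -1.13 ± 0.16 SE, edgeR quasi-likelihood adjusted p = 0.0085). Cxcl13, a chemokine that attracts B cells, had 3 UMIs in dual cells, all in replicate 3, and 309 in single cells, of which 213 were in replicate 3 and 205 in 1 cell (edgeR quasi-likelihood adjusted p = 0.00069). DESeq2 called H2-Aa and not Cxcl13 (adjusted p = 0.25). The complement gene C1qb followed without passing, with 1 UMI in dual and 138 in single cells, 66 of them in 1 cell (edgeR quasi-likelihood adjusted p = 0.092). The summed myeloid markers were at 0 to 27.8 CPM in dual and 17.2 to 87.9 in single CD8 cells, lower in dual cells in 3 of 4 replicates. Of the 6 myeloid markers 3 could be tested, 1 of them with a log2 difference above 0. In single CD8 cells H2-Aa was lowest in replicate 4, where the myeloid marker Lyz2 was highest, at 33.0 CPM. The 6 B cell markers summed to 144 to 623 and 133 to 316, higher in dual cells in 3 of 4. That sum did not stand for the list: only 1 of the 6 markers had a log2 difference above 0 (1.03), and the list median was -0.40. The part of either cell type in the result was not tested. H2-Aa missed without clone 1 (-0.74, adjusted p = 0.38), against depth-matched single cells (-1.02, adjusted p = 1.0) and without replicate 1 (adjusted p = 0.22) or replicate 3 (adjusted p = 0.061). Toward dual CD8 cells the smallest p belonged to Trac, Il21 and Tm6sf1, none of which passed. The 14 cytotoxic genes had a median of -0.10 with 3 above 0 and the 14 cycling genes -0.20 with 0 above 0, beside -0.01 over all genes tested, with none called.

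No gene passed the test of a different dual effect between populations. The interaction of dual status with CD8 against CD4 conventional cells gave none of 11133 genes (0.0%; edgeR quasi-likelihood), with 302 at an unadjusted p under 0.05, and that with Treg against CD4 conventional cells none of 9814 (0.0%), with 371. Leaving out 1 replicate gave 0 to 7 genes for the CD8 interaction, 7 of them without replicate 3 and 1 without replicate 2, and 0 to 2 for the Treg interaction, 1 without replicate 1 and 2 without replicate 2.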

How the data were processed

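The authors deposited raw UMI counts per gene and antibody in the mRNA matrices (Cell Ranger 4.0.0, per the file headers) and UMI and read counts per TCR contig; the labels name build mm10 and Seurat without a role in the submitters' processing notes, and no source used here states the V(D)J software. The antibody samples have no file of their own here; their counts stand in the mRNA matrices. Members, gates and lists were chosen with earlier results of these data known.

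Barcodes needed at least 500 gene UMIs and at most 8% mitochondrial UMIs. CD4 conventional cells had a CD4 count of at least 40, no Cd8a or Cd8b1 and no Foxp3 UMI; Treg the same with Foxp3; CD8 cells a CD4 count under 20 and at least 2 Cd8a plus Cd8b1 UMIs. No doublet caller was run; barcodes with 2 TRB chains were left out. Counts were summed per replicate, population and group, V, D and J genes of receptors were left out (639 genes), and edgeR 4.0.16 (filterByExpr, TMM, robust quasi-likelihood, replicate as block, Benjamini-Hochberg) was fitted; DESeq2 1.42.0, other normalization, filters, depth matching, clone counting and leaving out replicates were alternatives. Shares were compared over replicates by exact two-sided sign-flip permutation in Python 3.11.15. Intervals are 95% Wilson and cover counting error only. Dual and single cells of a replicate come from the same library, so the replicate number pairs them; residuals of paired sums correlated at 0.15 to 0.26 in CD4 conventional cells, 0.02 to 0.20 in Treg and 0.06 to 0.425 in CD8 cells. Named genes are up to 10 called per direction, or the 3 of smallest p where fewer than 3 passed, plus the receptor list. The fit was tested on simulated data with 200 changed genes.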

Additional observations from a re-analysis of the deposited data

Results flagged for a closer look

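In 30 sets of 4 replicate values, 3 had 1 value far from the rest, where chance gives about 1 in 20. The dual share of CD4 conventional cells was 8.12% in replicate 2, below the 9.61% to 9.85% of the others. Cxcl13 in dual CD8 cells was 1.24 CPM in replicate 3 (3 UMIs) and 0 in the others. With the others all at 0, any value above 0 would have been flagged, so the rate of 1 in 20 does not apply to Cxcl13. H2-Aa in single CD8 cells was 51.4 CPM in replicate 4, below the 153 to 170 of the others.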

How the results depend on the processing

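Alternatives that leave out clone 1, the largest clone, and the clone-wise count of expansion were chosen after seeing the data. With 1 cell per TRB chain, the dual share of CD4 conventional cells was 10.2%, CD8 minus CD4 conventional was -0.42 points, and the expansion differences were 6.32 (CD4 conventional), 2.78 (Treg) and 5.28 (CD8) points. Without clone 1, CD8 minus CD4 conventional was -0.93 points and the CD8 CD62L difference 1.72. The CD8 expansion difference was 0.0919 points with at least 2 UMIs for the second chain and 0.95 for clones of at least 3 cells, the Treg CD62L difference -0.44 at a count of 5, and the CD11a differences against depth-matched cells -0.16 (CD4 conventional) and -0.029 (CD8). Leaving out 1 replicate gave -1.71 to 5.03 points for CD8 minus CD4 conventional, -6.63 to 1.92 for CD8 minus Treg, -11.2 to 8.25 for CD8 expansion and -8.10 to 1.19 for CD8 CD62L.

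Genes called in CD4 conventional cells, 3 as reported, were 8 with at least 2 UMIs for the second chain, 35 with 1 cell per TRB chain, 6 with depth-matched cells, 5 without the top 10% of gene UMIs, 16 without cycling cells, 36 without a filter on low counts, and 2 to 14 leaving out 1 replicate. In Treg they were 1 with at least 2 UMIs, 17 without the top 10%, 9 without the filter and 0 to 9 leaving out 1 replicate. In CD8 cells, 2 as reported, they were 6 with 1 cell per TRB chain, 0 with depth-matched cells, 0 without the top 10%, 1 without clone 1, 29 without the filter, 1 by DESeq2 and 1 to 4 leaving out 1 replicate. Without the replicate block, 0 genes were called in CD4 conventional cells, 0 in CD8 cells and 0 in Treg. The interaction of CD8 with CD4 conventional cells gave 1 with 1 cell per TRB chain, 1 with depth-matched cells, 1 without clone 1 and 0 to 7 leaving out 1 replicate; that of Treg gave 1 with 1 cell per TRB chain and 0 to 2. TRAV families called ranged from 1 to 4 leaving out 1 replicate.

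Among named genes, none of them called in the fit concerned, signs turned without cycling cells for Trbc1 (0.15) and Trbc2 (0.060) in CD4 conventional cells, Areg in Treg (0.14), and Tm6sf1 (-0.025), Trbc2 (-0.15) and Cd3e (-0.031) in CD8 cells. With 1 cell per TRB chain they turned for Trbc1 in CD4 conventional cells (0.033), and for Cd3e (-0.044) and Cd247 (-0.12) in CD8 cells. Cd247 in CD8 cells was -0.014 without clone 1, and Cd3e in Treg 0.030 without the top 10% and -0.095 to 0.016 leaving out 1 replicate. The other receptor list genes had the opposite sign in 95 of 435 further fits, and 1 of these fits passed the threshold. The smallest group was the 16 dual Treg of replicate 3, with 185048 gene UMIs in sum.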
